A study of Homo sapiens with 12 samples.

Results

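The 35 genes described here make cholesterol and fatty acids, control that synthesis, or respond to sterols in the opposite way. They were chosen by symbol and were found among the 46639 gene symbols of the deposited table. By role, 7 genes act in the mevalonate steps, 11 lead from squalene to cholesterol, 3 are regulators, 3 are accessory genes of the same programme, 8 act in fatty acid synthesis and desaturation, and 3 (ABCA1, ABCG1 and MYLIP) respond to a sterol surplus. Tests ran on 10642 protein-coding genes that reached 10 normalised counts in at least 3 of the 12 libraries, and 33 of the 35 were among them. LPIN1 and ABCG1 did not reach that level.

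RNA was measured by strand-specific RNA-sequencing in MOLM-13, a human acute myeloid leukemia (AML) cell line with an MLL-AF9 fusion. All cells grew in medium with fetal calf serum and GM-CSF. Cells were untreated, or received 100 nM decitabine (DAC, a nucleoside analogue that depletes DNA methyltransferases), 1 µM all-trans retinoic acid (ATRA, a ligand of retinoic acid receptors), or both (DAC+ATRA), with 3 libraries per group. The libraries are technical triplicates, so all p-values measure the spread within 1 experiment. The labels give 96 h for untreated and 72 h for treated libraries, while the series design gives 72 h for harvest, and a difference in culture time and an effect of treatment cannot be told apart. The methods place ATRA at the last DAC dose, a shorter exposure than the labels give. ATRA was dissolved in DMSO and no vehicle library was among the samples.

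The untreated libraries held 8951104 to 11944630 recovered reads each, the DAC libraries 4671214 to 6954604, the ATRA libraries 8363702 to 10685348 and the DAC+ATRA libraries 5607158 to 7162775. The myeloid genes CD33, SPI1, CEBPA, CSF1R, LYZ and MPO had reads in all 12 libraries, and ITGAM and CD14 were low. Of these 8 markers, ITGAM, LYZ and MPO were higher with DAC, ITGAM was higher (2.52 on the log2 scale) and CEBPA (-1.34), LYZ (-2.65) and MPO (-0.95) were lower with ATRA, and CD33, ITGAM and MPO were higher and CEBPA lower with DAC+ATRA, all by the limma fit described below. Among markers of other cells, CD3E, MS4A1, EPCAM, HBB and ALB were at or near 0. COL1A1 was low and higher in all treated groups (8.03 ± 2.93 normalised counts in untreated, 79.0 ± 12.5 in ATRA; mean ± SD, n = 3). PECAM1 was expressed throughout, higher with DAC (0.49) and lower in both ATRA groups (-1.51 and -1.08). The part of these markers in the results below was not tested. Libraries of a group differed by more than counting error. The chi-square per degree of freedom between their reads was highest for DAC replicate 3 (20.0 and 12.9 from the other DAC libraries, which differed by 4.10). It was 12.3 between untreated replicates 1 and 3, 10.7 and 12.8 between ATRA replicate 1 and the other ATRA libraries, and 2.17 to 4.24 in DAC+ATRA.

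Cholesterol is built from acetyl-CoA through mevalonate, isoprenoid units, squalene and lanosterol. The genes of this route are switched on together by the SREBP transcription factors, which INSIG proteins hold in the endoplasmic reticulum when sterols are plentiful. Fatty acid genes such as FASN and SCD are SREBP targets too. When sterols are in surplus, the LXR receptors, which sense oxidised sterols, switch on ABCA1 and ABCG1, which export cholesterol, and MYLIP, a ubiquitin ligase that lowers lipoprotein uptake. Dividing cells need sterols and fatty acids for new membranes.

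The proximal promoters of 3 genes are shown from RefSeq (GRCh38.p14) as the 250 bases before the start site. SCD carried the most reads of all members, SREBF2 was the only gene among the 30 members with a window to hold the sterol regulatory element letters TCACNCCAC, and ABCA1 moved against the synthesis genes. Each runs 5′ to 3′ along the gene's strand. Capitals mark matches, on either strand, to TCACNCCAC, to CCAAT (the letters of the NF-Y site) and to CACGTG (the E-box).
SCD, chr10:100346983-100347232, plus strand: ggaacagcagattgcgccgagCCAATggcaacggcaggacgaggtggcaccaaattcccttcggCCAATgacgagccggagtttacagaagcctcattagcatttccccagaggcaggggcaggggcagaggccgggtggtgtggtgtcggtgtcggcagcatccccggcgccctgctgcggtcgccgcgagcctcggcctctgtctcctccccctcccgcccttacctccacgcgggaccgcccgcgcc
SREBF2, chr22:41832855-41833104, plus strand: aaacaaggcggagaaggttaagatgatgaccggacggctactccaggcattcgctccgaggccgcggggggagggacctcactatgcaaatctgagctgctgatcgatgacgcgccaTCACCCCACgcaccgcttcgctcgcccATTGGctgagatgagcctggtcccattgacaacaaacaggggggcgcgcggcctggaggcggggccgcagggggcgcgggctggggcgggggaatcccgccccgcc
ABCA1, chr9:104928156-104928405, minus strand: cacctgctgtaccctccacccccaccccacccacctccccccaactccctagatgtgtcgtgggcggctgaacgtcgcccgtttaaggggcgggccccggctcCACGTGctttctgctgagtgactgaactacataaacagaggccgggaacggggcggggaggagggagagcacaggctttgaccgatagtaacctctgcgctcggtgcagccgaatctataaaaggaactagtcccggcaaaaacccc
In SREBF2 the sterol element match lay 133 to 125 bases before the start. Windows were at hand for 30 of the 35 genes. TCACNCCAC was found in 1 of these 30 and in 0.875% of all 27305 windows, CACGTG in 3 (ABCA1, INSIG1 and SC5D) and in 6.49% of all windows, CCAAT in 19 and in 33% of all windows, and GGGCGG (the SP1 site) in 28 and in 42.3% of all windows. The windows were neither limited to protein-coding genes, as the members are, nor matched for base composition. Exact direct repeats of AGGTCA spaced by 4 and by 5 bases, the consensus letters of LXR and retinoic acid receptor sites, were in 0 of 30 windows. They were in only 0.0146% and 0.00366% of all windows. Finding 0 of 30 therefore says nothing about LXR or retinoic acid receptor sites whose letters differ, in ABCA1 or elsewhere. These shares describe exact letters in 1 window per gene and not binding. Sites with other letters were not searched for, so a window without a match, also to TCACNCCAC, may still hold a site. Some windows lay away from the annotated start of the gene, such as those of IDI1, ACSS2 and FADS2.

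Calls required an adjusted p under 0.01 (limma on log2(normalised count + 1), Benjamini-Hochberg over all 10642 genes). Every adjusted p below is from limma unless another tool is named. The ranges given over alternatives also cover DESeq2 and edgeR. The added 1 makes the log2 fold change of a gene with few counts smaller than it was. Normalised counts are reads divided by 1 size factor per library. Because reads were counted per transcript, levels can be compared between libraries and not between genes. In bulk RNA, fewer cells of a kind and less RNA per cell cannot be told apart.

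Genes of cholesterol synthesis fell with each treatment, most of them in both ATRA groups, while ABCA1 rose. With DAC, 12 of the 33 tested members fell and 1, ABCA1, rose. Over all genes tested, 7.97% were called with DAC, 3.67% lower and 4.29% higher. With ATRA, 23 members fell and ABCA1 rose, where 26% of all genes were called, 14% lower and 12.1% higher. With DAC+ATRA, 24 members fell and ABCA1 rose, where 28.9% of all genes were called, 14.4% lower and 14.5% higher. The median log2 change over the 33 members was -0.60 with DAC, -1.28 with ATRA and -1.42 with DAC+ATRA, while the medians over all genes tested were -0.0041, -0.038 and -0.0039. Without DAC replicate 3 the count of called members was 14 with DAC and 25 with DAC+ATRA. If a change of over 2-fold was also required, 5 members were called with DAC. The members called lower by each single drug were 12 of 33 (36.4%): AACS, ACAT2, CYP51A1, EBP, HMGCS1, HSD17B7, INSIG1, MSMO1, MVD, SCD, SQLE and STARD4. Of all genes tested, 1.24% were. Both comparisons share the untreated libraries.

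**Figure D1:**
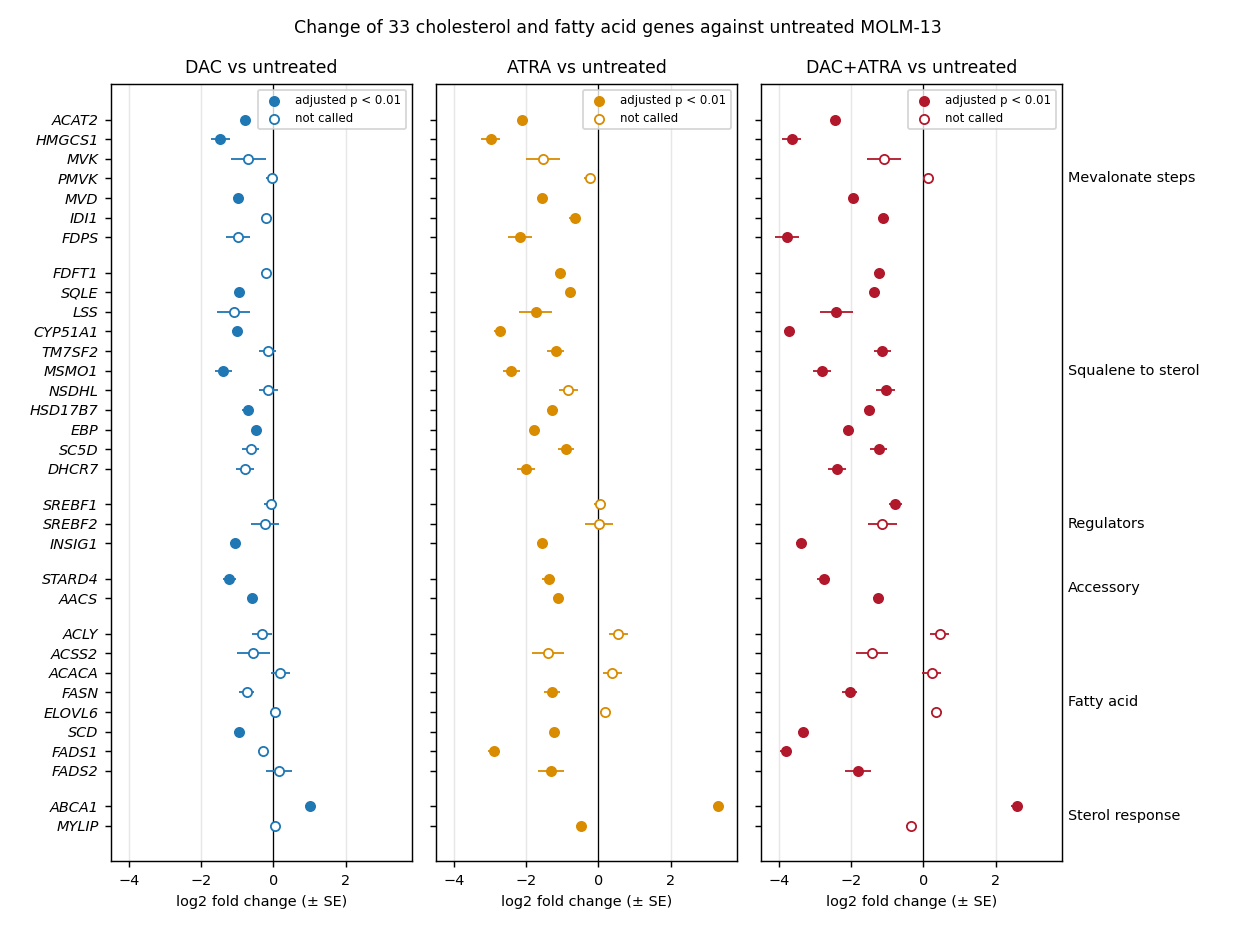
Log2 fold change against untreated (x axis, limma, bars are SE) of the 33 tested members, ordered by role, for DAC, ATRA and DAC+ATRA. Filled points have an adjusted p under 0.01; most members lie left of 0, ABCA1 lies right of 0 in each panel (1.00, 3.32 and 2.57), and ACLY, ACACA and ELOVL6 lie right of 0 with open points in the ATRA and DAC+ATRA panels.

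The mevalonate steps turn acetyl-CoA into isoprenoid units. Of their 7 genes, 3 fell with DAC, 5 with ATRA and 5 with DAC+ATRA, with median log2 changes of -0.80, -1.57 and -1.94. ACAT2 (ENSG00000120437, chromosome 6, 159762045 to 159779112), the cytosolic thiolase of the first step, had 7302, 6942 and 6661 normalised counts in the untreated libraries, 3847, 3646 and 4579 in DAC, 1734, 1659 and 1462 in ATRA and 1369, 1218 and 1221 in DAC+ATRA. The 4 groups did not overlap, and the mean fell to 57.7%, 23.2% and 18.2% of untreated. The log2 change of ACAT2 was -0.80 with DAC, -2.11 with ATRA and -2.46 with DAC+ATRA (SE 0.11, adjusted p 3.35e-05, 8.57e-12 and 1.05e-12). ACAT2 overlaps TCP1 and SOD2 on the opposite strand.

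HMGCS1 (ENSG00000112972, chromosome 5, 43287470 to 43313512), the synthase that makes HMG-CoA, had 402, 513 and 699 normalised counts in the untreated libraries, 204, 256 and 127 in DAC, 75.3, 69.2 and 54.3 in ATRA and 53.2, 28.1 and 45.9 in DAC+ATRA. Every treated library lay below every untreated one, although the untreated libraries themselves ranged widely. Its log2 change was -1.48 with DAC, -2.98 with ATRA and -3.64 with DAC+ATRA (SE 0.27, adjusted p 7.05e-04, 3.30e-08 and 2.09e-09). The HMGCS1 call with DAC was lost when just the 2 groups compared were fitted (0.0153), with adjusted p-values of 9.72e-08 to 0.0153 over 24 alternatives. MVD (chromosome 16), the decarboxylase that yields the first isoprenoid unit, had 2152, 2017 and 2230.0 normalised counts in the untreated libraries, 1317, 1000.5 and 944 in DAC, 718, 708 and 719 in ATRA and 465, 615 and 594 in DAC+ATRA. It stepped down without overlap to 51.0%, 33.5% and 26.2% of untreated, with log2 changes of -0.99 with DAC, -1.57 with ATRA and -1.94 with DAC+ATRA (SE 0.13, adjusted p 2.85e-05, 1.11e-08 and 6.06e-10).

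FDPS (ENSG00000160752, chromosome 1, 155308748 to 155320666), which joins isoprenoid units to farnesyl diphosphate, had 197, 183 and 154 normalised counts in the untreated libraries, 111, 64.3 and 100.1 in DAC, 43.9, 43.9 and 29.3 in ATRA and 5.599, 14.6 and 20.4 in DAC+ATRA. The DAC+ATRA libraries lay lowest, at 7.61% of untreated (13.6 ± 7.47 against 178 ± 22.1; mean ± SD, n = 3). The log2 change was -2.18 (SE 0.34, adjusted p 4.27e-05) with ATRA and -3.77 (SE 0.34, adjusted p 4.31e-08) with DAC+ATRA. With DAC it was -0.98 (adjusted p 0.0585) and not called, though the libraries did not overlap. FDPS has 8 named pseudogenes, so its reads are uncertain. Other members with named pseudogenes are IDI1 (3), CYP51A1 (3), HSD17B7 (2), AACS (1) and SCD (1). EBP overlaps an unnamed coding gene on its own strand. IDI1 (chromosome 10), the isomerase of the isoprenoid unit, had 244, 298 and 289 normalised counts in the untreated libraries, 234, 223 and 269 in DAC, 180.1, 203 and 144 in ATRA and 147, 123 and 115 in DAC+ATRA. It was lower in both ATRA groups (-0.66 and -1.11, adjusted p 0.00282 and 1.82e-05) and was not called with DAC (-0.19, adjusted p 0.465). The IDI1 call with ATRA was lost without untreated replicate 2 or 3 or ATRA replicate 3 (adjusted p 0.0144 to 0.0238) and with only the largest transcript row (0.0138), with adjusted p-values of 3.47e-04 to 0.0238 over 24 alternatives. No treated group differed from untreated beyond the threshold in MVK or PMVK, the kinases between mevalonate and its diphosphate. MVK was low, with means of 16.3 ± 4.86 in untreated and 5.16 ± 2.31 in ATRA (log2 change -1.54, adjusted p 0.0158). PMVK had a mean of 305 ± 27.4 in untreated and 334 ± 39.2 in DAC+ATRA (0.13, adjusted p 0.526).

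**Figure D2:**
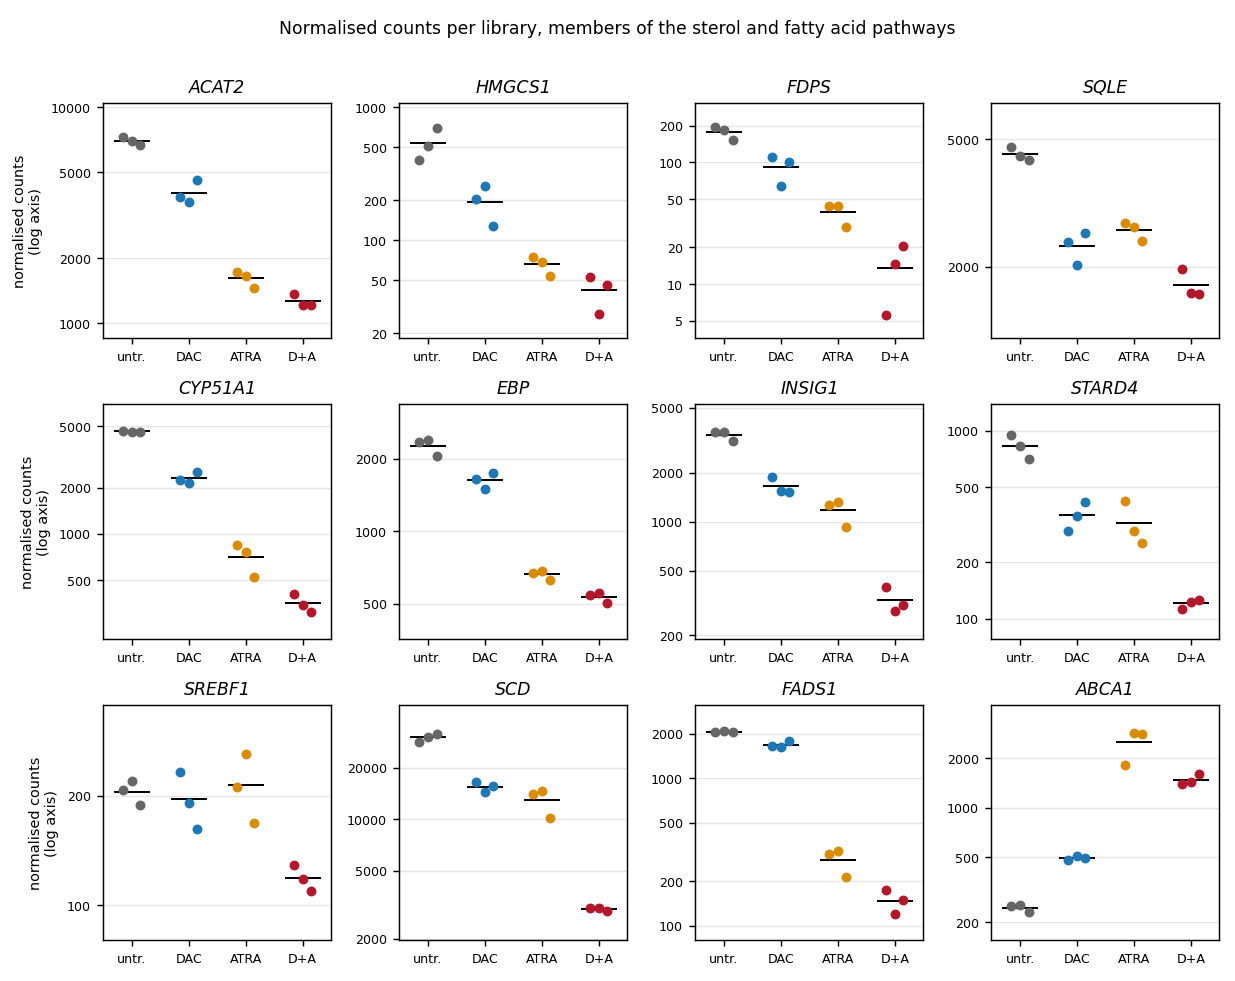
Normalised counts (y axis, log scale) of 12 members in each library; points are libraries, bars are group means, untr. is untreated and D+A is DAC+ATRA. In SCD, INSIG1 and STARD4 the 3 DAC+ATRA libraries lie well below both single drugs, SREBF1 is lower in DAC+ATRA alone, and ABCA1 runs the other way with its highest libraries in ATRA.

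Squalene is turned into cholesterol in the endoplasmic reticulum. Of the 11 genes of these steps, 5 fell with DAC, 10 with ATRA and 11 with DAC+ATRA, with median log2 changes of -0.71, -1.28 and -1.49. Together with the mevalonate steps, 8 of 18 cholesterol synthesis genes fell with DAC, 15 with ATRA and 16 with DAC+ATRA. FDFT1, the synthase that makes squalene, had 706, 657 and 634 normalised counts in the untreated libraries, 687, 543 and 506 in DAC, 328, 324 and 304 in ATRA and 342, 249 and 272 in DAC+ATRA. DAC libraries overlapped the untreated ones (log2 change -0.21, adjusted p 0.337), whereas both ATRA groups were lower, with log2 changes of -1.06 (SE 0.14, adjusted p 5.22e-06) and -1.22 (SE 0.14, adjusted p 9.39e-07). SQLE, the epoxidase that commits squalene to sterols, had 4712, 4435 and 4311 normalised counts in the untreated libraries, 2389, 2028 and 2544 in DAC, 2746, 2661 and 2399 in ATRA and 1969.5, 1651 and 1643 in DAC+ATRA. The log2 change of SQLE was -0.96 with DAC, -0.79 with ATRA and -1.36 with DAC+ATRA (SE 0.11, adjusted p 5.51e-06, 1.02e-05 and 8.52e-09). DAC and ATRA libraries of SQLE overlapped each other, and DAC+ATRA lay below both. LSS (chromosome 21), the cyclase that makes lanosterol, was low, with 39.7, 43.0 and 58.3 normalised counts in the untreated libraries, 30.5, 34.5 and 8.71 in DAC, 10.8, 17.1 and 12.5 in ATRA and 4.20, 10.1 and 11.2 in DAC+ATRA. It was lower in both ATRA groups (-1.73 and -2.41, adjusted p 0.00516 and 2.92e-04), and not called with DAC (-1.096, adjusted p 0.114). The LSS call with ATRA was lost without untreated replicate 1 or 2 or 3 or ATRA replicate 1 or 3 (adjusted p 0.0119 to 0.0284) and without a filter on low values (0.0136), with adjusted p-values of 1.25e-04 to 0.0284 over 23 alternatives.

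CYP51A1 (ENSG00000001630, chromosome 7, 92084987 to 92134803), the demethylase that acts on lanosterol, had 4659, 4615 and 4619.9 normalised counts in the untreated libraries, 2247, 2134 and 2541 in DAC, 843, 763 and 522 in ATRA and 406, 346 and 309 in DAC+ATRA. The 4 groups did not overlap, and CYP51A1 was 2.01-fold lower with DAC, 6.53-fold with ATRA and 13.1-fold with DAC+ATRA. The log2 change was -1.01 with DAC, -2.73 with ATRA and -3.72 with DAC+ATRA (SE 0.15, adjusted p 8.28e-05, 1.96e-11 and 2.62e-13). CYP51A1 has 3 named pseudogenes and overlaps 2 unnamed coding genes on its own strand. MSMO1 (chromosome 4), the oxidase of the next demethylation, had 342, 289.8 and 273 normalised counts in the untreated libraries, 106, 133 and 104 in DAC, 56.4, 60.3 and 51.0 in ATRA and 64.4, 41.6 and 27.6 in DAC+ATRA. Its ATRA and DAC+ATRA libraries overlapped, and both lay below the DAC libraries, which lay below untreated. MSMO1 changed by -1.39 with DAC, -2.41 with ATRA and -2.81 with DAC+ATRA (SE 0.24, adjusted p 4.30e-04, 1.33e-07 and 1.77e-08).

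TM7SF2 (chromosome 11), a sterol reductase, had 108, 138 and 139.9 normalised counts in the untreated libraries, 145, 122 and 84.9 in DAC, 53.8, 61.8 and 51.8 in ATRA and 46.2, 51.8 and 79.6 in DAC+ATRA. DAC libraries overlapped untreated, and both ATRA groups were lower, with log2 changes of -1.19 (adjusted p 4.68e-04) and -1.14 (adjusted p 6.55e-04). TM7SF2 overlaps VPS51 on the same strand. NSDHL (chromosome X), a dehydrogenase of the demethylation steps, had 59.1, 82.0 and 48.9 normalised counts in the untreated libraries, 53.4, 54.9 and 59.9 in DAC, 43.0, 38.7 and 24.2 in ATRA and 26.6, 29.3 and 32.7 in DAC+ATRA. It was called with DAC+ATRA (-1.05, adjusted p 0.00333) and not with ATRA (-0.83, adjusted p 0.0171) or DAC (-0.14, adjusted p 0.774). The NSDHL call was lost without untreated replicate 1 or 2 or DAC+ATRA replicate 1 or 2 (adjusted p 0.0102 to 0.0314), with adjusted p-values of 0.00123 to 0.0314 over 24 alternatives. HSD17B7 (chromosome 1), the reductase that completes demethylation, had 498, 477 and 478 normalised counts in the untreated libraries, 307, 282 and 298 in DAC, 211, 237 and 157 in ATRA and 183, 152 and 179.7 in DAC+ATRA. All treated HSD17B7 libraries lay below the untreated ones, with log2 changes of -0.71 with DAC, -1.28 with ATRA and -1.49 with DAC+ATRA (SE 0.15, adjusted p 0.00264, 1.13e-06 and 1.60e-07). Its call with DAC was lost without untreated replicate 1 or 2 or 3 or DAC replicate 2 (adjusted p 0.0111 to 0.0150), with adjusted p-values of 5.82e-05 to 0.0150 over 24 alternatives.

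EBP (chromosome X), the isomerase that moves the sterol double bond, had 2355, 2397 and 2051 normalised counts in the untreated libraries, 1651, 1491 and 1743 in DAC, 671, 682 and 629.5 in ATRA and 545, 552 and 501 in DAC+ATRA. The 4 groups of EBP stepped down without overlap, with log2 changes of -0.48 with DAC, -1.77 with ATRA and -2.09 with DAC+ATRA (SE 0.10, adjusted p 0.00370, 7.57e-11 and 8.48e-12). The EBP call with DAC was lost without untreated replicate 1 or 2 or DAC replicate 2 (adjusted p 0.0234 to 0.0317) and when just the 2 groups compared were fitted (0.0281), with adjusted p-values of 1.52e-04 to 0.0317 over 24 alternatives. SC5D (chromosome 11), a sterol desaturase, had 125, 167 and 157 normalised counts in the untreated libraries, 68.7, 94.1 and 134 in DAC, 64.5, 78.9 and 98.6 in ATRA and 61.6, 65.3 and 60.2 in DAC+ATRA. It was lower in both ATRA groups (-0.89 and -1.24, adjusted p 0.00425 and 2.32e-04), and its DAC libraries reached into the untreated range. The SC5D call with ATRA was lost without untreated replicate 2 or 3 or ATRA replicate 1 or 2 (adjusted p 0.0156 to 0.0271), with adjusted p-values of 5.63e-04 to 0.0271 over 24 alternatives. DHCR7 (chromosome 11), the reductase of the last step to cholesterol, had 156, 129 and 127 normalised counts in the untreated libraries, 96.7, 80.0 and 63.1 in DAC, 33.1, 35.7 and 31.8 in ATRA and 33.6, 27.0 and 17.4 in DAC+ATRA. DHCR7 was 4.10-fold lower with ATRA and 5.29-fold lower with DAC+ATRA (log2 changes -1.997 and -2.40, adjusted p 2.63e-06 and 2.65e-07). With DAC all libraries were lower than untreated, at -0.79 (adjusted p 0.0360), which was not called.

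The regulators differed from one another. INSIG1 (ENSG00000186480, chromosome 7, 155297776 to 155310235), which retains SREBP in the endoplasmic reticulum and is itself an SREBP target, had 3565, 3558 and 3147 normalised counts in the untreated libraries, 1878, 1542 and 1517 in DAC, 1261, 1329 and 927 in ATRA and 398, 280.3 and 308 in DAC+ATRA. The 4 groups did not overlap, and DAC+ATRA stood far below both single drugs, at 9.60% of untreated against 48.1% with DAC and 34.2% with ATRA. INSIG1 changed on the log2 scale by -1.06 with DAC, -1.56 with ATRA and -3.39 with DAC+ATRA (SE 0.15, adjusted p 4.43e-05, 6.52e-08 and 9.87e-13). SREBF1 (ENSG00000072310, chromosome 17, 17810399 to 17837002), which encodes the SREBP that acts mainly on fatty acid genes, had 207, 219 and 189 normalised counts in the untreated libraries, 233, 191 and 162 in DAC, 211, 261 and 168 in ATRA and 129, 118 and 109 in DAC+ATRA. Its untreated, DAC and ATRA libraries overlapped, and all DAC+ATRA libraries lay below them. Against untreated the log2 change of SREBF1 was -0.081 with DAC, 0.039 with ATRA and -0.78 with DAC+ATRA (SE 0.17, adjusted p 0.813, 0.890 and 0.00137). The last call was lost with only the largest transcript row (0.0121), with adjusted p-values of 1.44e-04 to 0.0121 over 24 alternatives.

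SREBF2 (ENSG00000198911, chromosome 22, 41833105 to 41907306), which encodes the SREBP that acts mainly on sterol genes, had 18.7, 29.2 and 19.4 normalised counts in the untreated libraries, 17.8, 17.2 and 20.7 in DAC, 21.5, 21.6 and 23.4 in ATRA and 6.999, 5.63 and 20.4 in DAC+ATRA. Its libraries overlapped between untreated and each treated group, and no comparison of SREBF2 was called (-1.14, adjusted p 0.0270 with DAC+ATRA). These are counts of at most 36 reads in a library, and the row of 1 of its 2 listed transcripts held no reads, so they are a lower limit of the SREBF2 level.

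Among the accessory genes, STARD4 (chromosome 5), a carrier of cholesterol between membranes, had 956, 833 and 706 normalised counts in the untreated libraries, 295, 353 and 420.2 in DAC, 422, 295 and 254 in ATRA and 113, 124 and 126 in DAC+ATRA. DAC and ATRA libraries of STARD4 overlapped, and the DAC+ATRA libraries were lower than all others. STARD4 changed by -1.23 with DAC, -1.38 with ATRA and -2.76 with DAC+ATRA (SE 0.18, adjusted p 7.11e-05, 3.61e-06 and 2.77e-10). AACS (chromosome 12), which makes acetoacetyl-CoA from ketone bodies for sterol synthesis, had 768, 794 and 943 normalised counts in the untreated libraries, 677, 494 and 489 in DAC, 349, 400.3 and 394 in ATRA and 337, 329 and 371 in DAC+ATRA. Only DAC replicate 1 came near the untreated range, and the log2 change was -0.60 with DAC, -1.13 with ATRA and -1.27 with DAC+ATRA (SE 0.14, adjusted p 0.00460, 1.92e-06 and 4.58e-07). The AACS call with DAC was lost without untreated replicate 2 or 3 or DAC replicate 2 (adjusted p 0.0161 to 0.0354) and when just the 2 groups compared were fitted (0.0452), with adjusted p-values of 6.28e-04 to 0.0452 over 24 alternatives. LPIN1, a phosphatidate phosphatase, was too low to be tested, with means of 9.70 ± 3.16 in untreated and 5.41 ± 3.90 in DAC+ATRA.

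Among the fatty acid genes, the synthase and the desaturases fell in both ATRA groups. ACLY, ACSS2, ACACA and the elongase ELOVL6 were not called in a comparison with untreated. Of the 8 genes, 1 fell with DAC (SCD), 4 with ATRA and 4 with DAC+ATRA (FASN, SCD, FADS1 and FADS2). ACLY, which supplies cytosolic acetyl-CoA, went from 25.4 ± 5.18 normalised counts in untreated to 37.3 ± 4.14 in ATRA (0.55, adjusted p 0.121). ACSS2, which makes acetyl-CoA from acetate, went from 29.5 ± 12.9 to 10.7 ± 4.84 (-1.40, adjusted p 0.0192). That log2 difference was larger than those of FASN, SCD and FADS2 with ATRA, which were called, and smaller than that of FADS1. ACACA, the acetyl-CoA carboxylase, went from 37.8 ± 1.92 to 50.6 ± 13.0 (0.38, adjusted p 0.286). ELOVL6 went from 200.2 ± 18.5 to 256 ± 9.66 in DAC+ATRA (0.36, adjusted p 0.0618). These are means ± SD of 3 libraries, and the counts of ACLY, ACSS2 and ACACA are low.

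SCD (ENSG00000099194, chromosome 10, 100347233 to 100364826), the desaturase that makes oleate and palmitoleate, had 28337, 30311 and 31700.4 normalised counts in the untreated libraries, 16395, 14503 and 15555 in DAC, 14134, 14707 and 10203 in ATRA and 3025, 3018 and 2882 in DAC+ATRA. No group overlapped untreated, and DAC+ATRA was 10.1-fold lower, against 1.94-fold with DAC and 2.31-fold with ATRA. SCD changed on the log2 scale by -0.96 with DAC, -1.23 with ATRA and -3.34 with DAC+ATRA (SE 0.12, adjusted p 1.68e-05, 1.35e-07 and 8.27e-14). FASN (chromosome 17), the fatty acid synthase, had 266, 273 and 415 normalised counts in the untreated libraries, 221, 204 and 143 in DAC, 141, 130.2 and 112 in ATRA and 61.6, 73.2 and 93.9 in DAC+ATRA. FASN was lower in both ATRA groups (-1.28 and -2.04, adjusted p 6.99e-05 and 2.67e-07), and with DAC its libraries lay below the untreated ones without being called (-0.74, adjusted p 0.0211).

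FADS1 (ENSG00000149485, chromosome 11, 61799627 to 61829318), a desaturase of polyunsaturated fatty acids, had 2069, 2079 and 2049 normalised counts in the untreated libraries, 1641, 1631 and 1796 in DAC, 306, 323 and 212 in ATRA and 174, 120.4 and 150.1 in DAC+ATRA. FADS1 was 7.37-fold lower with ATRA and 13.95-fold lower with DAC+ATRA, with log2 changes of -2.90 (SE 0.15, adjusted p 1.21e-11) and -3.81 (SE 0.15, adjusted p 2.62e-13). With DAC its libraries lay just below untreated, and the change of -0.29 (adjusted p 0.212) was not called. FADS2, its neighbour in the same pathway, had 75.4, 52.8 and 80.3 normalised counts in the untreated libraries, 97.95, 86.3 and 53.3 in DAC, 43.9, 23.8 and 18.4 in ATRA and 26.6, 23.6 and 10.2 in DAC+ATRA. FADS2 was lower in both ATRA groups (-1.32 and -1.82, adjusted p 0.00747 and 5.10e-04), and its DAC libraries overlapped untreated. The FADS2 call with ATRA was lost without untreated replicate 1 or 3 or ATRA replicate 2 or 3 (adjusted p 0.0308 to 0.0518), with a pseudocount of 0.1 (0.0108) and without a filter on low values (0.0170), with adjusted p-values of 8.17e-04 to 0.0518 over 24 alternatives. FADS1 and FADS2 overlap each other on opposite strands, and FADS2 overlaps FEN1 on the same strand.

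The genes that respond to a sterol surplus did not move together. ABCA1 (ENSG00000165029, chromosome 9, 104781006 to 104928155), which exports cholesterol to apolipoproteins, had 253, 255 and 231 normalised counts in the untreated libraries, 481, 505 and 492 in DAC, 1834, 2859.7 and 2832 in ATRA and 1386, 1433 and 1595 in DAC+ATRA. The 4 groups did not overlap: DAC was 2.00-fold higher than untreated, ATRA 10.2-fold and DAC+ATRA 5.98-fold, and ATRA replicate 1 was the lowest of its group. Its log2 change was 1.00 with DAC, 3.32 with ATRA and 2.57 with DAC+ATRA (SE 0.14, adjusted p 5.65e-05, 5.72e-13 and 2.85e-11). ABCG1, the exporter to lipoprotein particles, had 1.56, 0 and 0 normalised counts in the untreated libraries, 0, 0 and 0 in DAC, 0, 0 and 0.836 in ATRA and 0, 0 and 0 in DAC+ATRA. These are at most 2 reads in a library, and no difference could be detected at this depth. MYLIP (chromosome 6) had 446, 466 and 409.6 normalised counts in the untreated libraries, 479.6, 488 and 408 in DAC, 284, 379.5 and 290.1 in ATRA and 349, 329 and 360.4 in DAC+ATRA. Its DAC libraries overlapped untreated, and its ATRA libraries lay below (log2 change -0.48, adjusted p 0.00739), the opposite direction to ABCA1. With DAC+ATRA the MYLIP change was -0.35 (adjusted p 0.0432), not called. The MYLIP call with ATRA was lost without untreated replicate 1 or 2 or 3 or ATRA replicate 1 or 3 or DAC+ATRA replicate 1 or 2 or 3 (adjusted p 0.0104 to 0.0404), when just the 2 groups compared were fitted (0.0108) and with a block for the replicate number (0.0101), with adjusted p-values of 0.00189 to 0.0404 over 24 alternatives.

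To set synthesis beside the response genes, the mean log2 level of the 26 genes of the mevalonate, sterol and fatty acid groups was taken in each library. The untreated libraries averaged 8.40 ± 0.045, the DAC libraries 7.82 ± 0.10, the ATRA libraries 7.06 ± 0.17 and the DAC+ATRA libraries 6.62 ± 0.057 (mean ± SD, n = 3), and no groups overlapped. The log2 level of ABCA1 was 7.95 ± 0.079, 8.95 ± 0.035, 11.3 ± 0.37 and 10.5 ± 0.11 in the same order. Every treated group was lower on synthesis and higher on ABCA1 than untreated, whereas DAC+ATRA was lower than ATRA on both. The synthesis mean minus the mean of ABCA1, ABCG1 and MYLIP was 2.67 ± 0.32 without treatment, 1.89 ± 0.088 after DAC, 0.44 ± 0.40 after ATRA and 0.30 ± 0.10 after both drugs. ATRA and DAC+ATRA libraries overlapped on this difference. It includes ABCG1 at or near 0, so its size depends on the pseudocount: with 0.1 in place of 1 the change with DAC was -0.49 in place of -0.79. No test was run on these means, since the genes were chosen with results known.

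**Figure D3:**
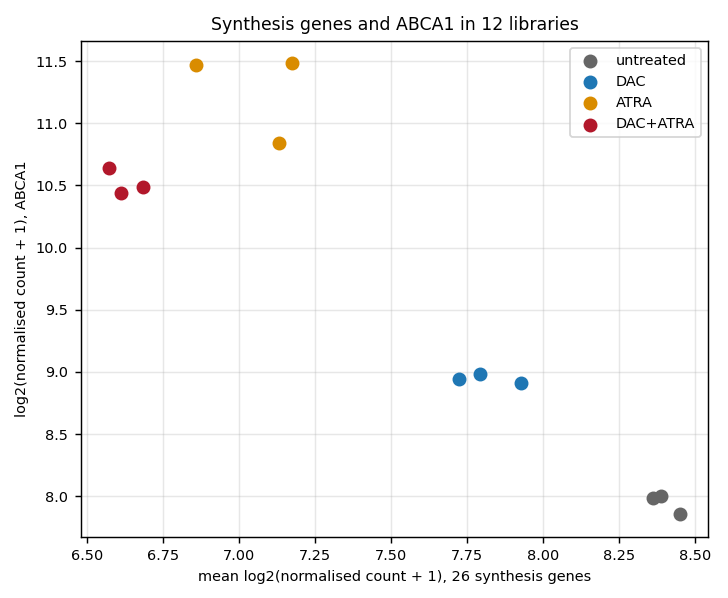
Mean log2(normalised count + 1) of 26 synthesis genes (x axis) against log2(normalised count + 1) of ABCA1 (y axis) in 12 libraries, coloured by group. Untreated libraries lie at the lower right (8.40 and 7.95 on average), ATRA libraries highest on ABCA1 (11.3) and DAC+ATRA libraries furthest left (6.62).

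The combination was next compared with each single drug. Against DAC alone, DAC+ATRA was lower in 21 of the 33 members and higher in ABCA1, where 18.8% of all genes were called, 9.74% lower and 9.04% higher. The median log2 difference was -0.96 over the members and -0.00039 over all genes. FADS1 differed most (-3.52, adjusted p 1.14e-12), followed by FDPS (-2.79, adjusted p 3.28e-06), CYP51A1 (-2.71, adjusted p 3.01e-11), SCD (-2.38, adjusted p 1.27e-11) and INSIG1 (-2.33, adjusted p 2.66e-10). ABCA1 was higher by 1.57 (adjusted p 4.82e-08).

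Against ATRA alone, DAC+ATRA was lower in 9 of the 33 members, where 11.9% of all genes were called, 5.46% lower and 6.47% higher. The median log2 difference was -0.40 over the members and 0.034 over all genes. The 9 were SCD (-2.11, adjusted p 4.02e-10), INSIG1 (-1.83, adjusted p 3.85e-08), FDPS (-1.60, adjusted p 0.00218), STARD4 (-1.38, adjusted p 1.33e-05), CYP51A1 (-0.98, adjusted p 7.83e-05), FADS1 (-0.91, adjusted p 2.28e-04), SREBF1 (-0.82, adjusted p 0.00216), ABCA1 (-0.74, adjusted p 7.81e-04) and SQLE (-0.57, adjusted p 8.45e-04). All 9 had no overlap between the ATRA and DAC+ATRA libraries. If a change of over 2-fold was also required, 4 of them were called. The FDPS call was lost without ATRA replicate 2 or DAC+ATRA replicate 1 (adjusted p 0.0115 to 0.0152) and when just the 2 groups compared were fitted (0.0153), with adjusted p-values of 2.55e-04 to 0.0153 over 24 alternatives. The SREBF1 call was lost without ATRA replicate 2 or DAC+ATRA replicate 2 or 3 (adjusted p 0.0104 to 0.0221) and with only the largest transcript row (0.0237), with adjusted p-values of 1.37e-04 to 0.0237 over 24 alternatives. Without DAC replicate 3, whose reads enter only the spread here, 11 members were called.

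DAC+ATRA was lower than both single drugs in 8 of 33 members (24.2%): CYP51A1, FADS1, FDPS, INSIG1, SCD, SQLE, SREBF1 and STARD4. Of all genes tested, 1.23% were. For SQLE and SREBF1 the difference from DAC was near the threshold. SQLE differed from DAC by -0.40 (adjusted p 0.00870), a call that was lost without untreated replicate 1 or 2 or 3 or ATRA replicate 2 or DAC replicate 1 or 3 or DAC+ATRA replicate 2 or 3 (adjusted p 0.0117 to 0.0516), without a filter on low values (0.0146), when just the 2 groups compared were fitted (0.0311), with a block for the replicate number (0.0105) and with every symbol tested (0.0102), with adjusted p-values of 0.00311 to 0.0516 over 24 alternatives. SREBF1 differed from DAC by -0.70 (adjusted p 0.00478), which was lost without DAC replicate 1 or 2 or DAC+ATRA replicate 2 or 3 (adjusted p 0.0143 to 0.0275), when just the 2 groups compared were fitted (0.0137) and with only the largest transcript row (0.0101), with adjusted p-values of 0.00107 to 0.0275 over 24 alternatives.

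The interaction is the DAC effect in the presence of ATRA minus the DAC effect in its absence. It was called in 2 of 33 members, SCD and ABCA1, both negative, where 1.6% of all genes were called, 0.874% negative and 0.724% positive. For SCD, DAC changed the level by -0.96 without ATRA and by -2.11 with it, an interaction of -1.15 (SE 0.17, adjusted p 4.51e-04). The difference that goes with DAC was larger for SCD when ATRA was given too. For ABCA1, DAC changed the level by 1.00 without ATRA and by -0.74 with it, an interaction of -1.74 (SE 0.20, adjusted p 3.40e-05). The direction of the DAC effect on ABCA1 turned from higher to lower. For INSIG1 the interaction of -0.77 (adjusted p 0.0429) was not called. The median interaction was 0.39 over the 18 cholesterol synthesis genes, with 15 of them positive, and -0.18 over the 8 fatty acid genes, beside 0.034 over all genes.

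Neighbouring pathways were followed with 4 further lists. Of 19 tested genes of sterol sensing and trafficking, 4 were higher with DAC, CYP27A1 among them, and 1 was lower (INSIG2), where 7.97% of all genes were called. With ATRA 4 were higher (NPC1, NPC2, SOAT1 and CYP27A1) and 3 lower (INSIG2, MBTPS2 and ERLIN1), where 26% of all genes were called, and with DAC+ATRA 6 were higher and 2 lower, where 28.9% were. The INSIG2 call with ATRA was lost without untreated replicate 1 or 3 or ATRA replicate 1 or 3 (adjusted p 0.0107 to 0.0273), with adjusted p-values of 5.47e-04 to 0.0273 over 24 alternatives, and that with DAC without untreated replicate 1 (adjusted p 0.0149) and when just the 2 groups compared were fitted (0.0131), with adjusted p-values of 4.50e-05 to 0.0149 over 24 alternatives. CYP27A1, a mitochondrial hydroxylase that makes an oxysterol, had 661, 697 and 664 normalised counts in the untreated libraries, 1296, 1154 and 950.3 in DAC, 17572, 20903 and 21923 in ATRA and 16211, 17039 and 17086 in DAC+ATRA. Both ATRA groups lay far above the others, 29.9-fold and 24.9-fold above untreated. CYP27A1 changed by 0.74 with DAC, 4.89 with ATRA and 4.64 with DAC+ATRA (SE 0.11, adjusted p 1.59e-04, 1.26e-16 and 3.39e-16), with an interaction of -0.995 (adjusted p 9.33e-04).

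SOAT1, which esterifies cholesterol for storage, had 55.2, 60.1 and 38.3 normalised counts in the untreated libraries, 58.5, 62.7 and 85.99 in DAC, 106, 106 and 99.5 in ATRA and 161, 159 and 163 in DAC+ATRA. Untreated and DAC libraries of SOAT1 overlapped, ATRA lay above them, and DAC+ATRA lay highest, with log2 changes of 0.43 with DAC, 1.03 with ATRA and 1.66 with DAC+ATRA (SE 0.20, adjusted p 0.167, 4.48e-04 and 2.32e-06). NPC2, a lysosomal cholesterol carrier, rose in both ATRA groups (log2 changes 1.41 and 1.32, adjusted p 4.87e-07 and 1.22e-06). NPC1, its membrane partner, changed by 0.52 (adjusted p 0.00181) with ATRA and by 0.29 (adjusted p 0.0597) with DAC+ATRA, the latter not called. ERLIN1, a membrane protein of the endoplasmic reticulum that restrains SREBP, had 1903, 1871 and 1935 normalised counts in the untreated libraries, 2331, 2227 and 2213 in DAC, 840.4, 684 and 619 in ATRA and 1166, 999.6 and 987 in DAC+ATRA. ERLIN1 was lowest with ATRA, and its log2 change was 0.25 with DAC, -1.42 with ATRA and -0.86 with DAC+ATRA (SE 0.11, adjusted p 0.158, 6.78e-09 and 6.03e-06). ERLIN2, its partner, was higher with DAC+ATRA (0.38, adjusted p 0.00990), a call lost in 15 of 24 alternatives (adjusted p 8.64e-04 to 0.0603), with the highest value without untreated replicate 3.

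Of 7 tested LXR genes and targets besides ABCA1, 3 were called with DAC, 1 with ATRA and 3 with DAC+ATRA. Over all genes tested, 7.97%, 26% and 28.9% were called. SMPDL3A and LPCAT3 were higher and APOC1 lower with DAC, and SMPDL3A was higher with ATRA. The calls with DAC+ATRA included LPCAT3 (higher) and APOC1 (lower). NR1H2, NR1H3 and PLTP were not called in a comparison with untreated. SMPDL3A, a phosphodiesterase, had 73.1, 51.1 and 37.0 normalised counts in the untreated libraries, 132, 100.4 and 101 in DAC, 88.7, 112 and 140.4 in ATRA and 84.0, 76.5 and 88.8 in DAC+ATRA. All treated libraries of SMPDL3A lay above the untreated ones, and the log2 change was 1.08 with DAC, 1.097 with ATRA and 0.67 with DAC+ATRA (SE 0.24, adjusted p 0.00378, 0.00104 and 0.0293). The SMPDL3A call with ATRA was lost without ATRA replicate 3 (adjusted p 0.0106), with adjusted p-values of 5.69e-05 to 0.0106 over 24 alternatives, and that with DAC without untreated replicate 2 or 3 or DAC replicate 1 (adjusted p 0.0175 to 0.0288) and when just the 2 groups compared were fitted (0.0458), with adjusted p-values of 4.74e-04 to 0.0458 over 24 alternatives. The calls of LPCAT3 and APOC1 were each lost under at least 1 other setting, with adjusted p up to 0.0134 (LPCAT3) and 0.0280 (APOC1) with DAC and up to 0.0461 (LPCAT3) and 0.0293 (APOC1) with DAC+ATRA.

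Of 17 tested genes of fatty acid elongation and lipid assembly, ELOVL5 was higher and ME1, HSD17B12 and HACD3 lower with ATRA, and SCD5 was higher and ME1, HSD17B12 and ACSL3 lower with DAC+ATRA. These are 4 of 17 in each comparison (26% and 28.9% of all genes were called). With DAC limma called 0 of the 17 (8 at an unadjusted p under 0.05), and DESeq2 and edgeR called 2 each. The ME1 call with DAC+ATRA was lost without untreated replicate 1 or 2 or 3 or DAC+ATRA replicate 1 or 2 (adjusted p 0.0102 to 0.0223), with adjusted p-values of 0.00124 to 0.0223 over 24 alternatives. ELOVL5, an elongase of polyunsaturated fatty acids, had 150.1, 117 and 147 normalised counts in the untreated libraries, 90.3, 108 and 91.4 in DAC, 342, 299 and 312 in ATRA and 79.8, 115 and 124 in DAC+ATRA. It was higher in ATRA than in all other groups (1.20, adjusted p 2.43e-05), and DAC+ATRA overlapped untreated and lay -1.60 (adjusted p 2.96e-06) from ATRA. ACSL3, which activates fatty acids for lipid droplets, was lower with DAC+ATRA (-0.96, adjusted p 1.66e-04) and not called with either single drug. SCD5, a second stearoyl-CoA desaturase, had 0.778, 0.812 and 0.627 normalised counts in the untreated libraries, 15.3, 1.57 and 5.44 in DAC, 0.896, 1.49 and 1.67 in ATRA and 9.80, 11.3 and 20.4 in DAC+ATRA. It entered the tests only through DAC and DAC+ATRA libraries, where it was highest, so its call is no support for a difference.

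Of 14 tested genes of fatty acid oxidation and lipid droplets, 2 were called with DAC, 4 with ATRA and 4 with DAC+ATRA. Over all genes tested, 7.97%, 26% and 28.9% were called. SLC25A20 was higher and PLIN2 lower with all 3 treatments, and CPT1A was lower in both ATRA groups. SLC25A20, the mitochondrial carnitine carrier, had 38.1, 37.3 and 38.3 normalised counts in the untreated libraries, 82.7, 78.4 and 67.5 in DAC, 239, 246 and 334 in ATRA and 280.0, 294 and 224 in DAC+ATRA. Its ATRA and DAC+ATRA libraries overlapped far above the others, with log2 changes of 0.98 with DAC, 2.80 with ATRA and 2.77 with DAC+ATRA (SE 0.18, adjusted p 6.89e-04, 2.22e-10 and 2.86e-10). The SLC25A20 call with DAC was lost when just the 2 groups compared were fitted (0.0206), with adjusted p-values of 1.97e-04 to 0.0206 over 24 alternatives. PLIN2, which coats lipid droplets, had 1729, 1763 and 1397 normalised counts in the untreated libraries, 663, 795 and 667 in DAC, 481, 733 and 592 in ATRA and 517, 540.3 and 475 in DAC+ATRA. PLIN2 changed by -1.20 with DAC, -1.45 with ATRA and -1.67 with DAC+ATRA (SE 0.14, adjusted p 8.32e-06, 1.24e-07 and 1.96e-08), with an interaction of 0.98 (adjusted p 0.00736). The PLIN2 interaction was lost without untreated replicate 1 or 2 or ATRA replicate 1 or 3 or DAC replicate 1 or DAC+ATRA replicate 1 or 2 or 3 (adjusted p 0.0155 to 0.0356), with a pseudocount of 0.1 (0.0106) and without a filter on low values (0.0139), with adjusted p-values of 5.95e-04 to 0.0356 over 23 alternatives.

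**Figure D4:**
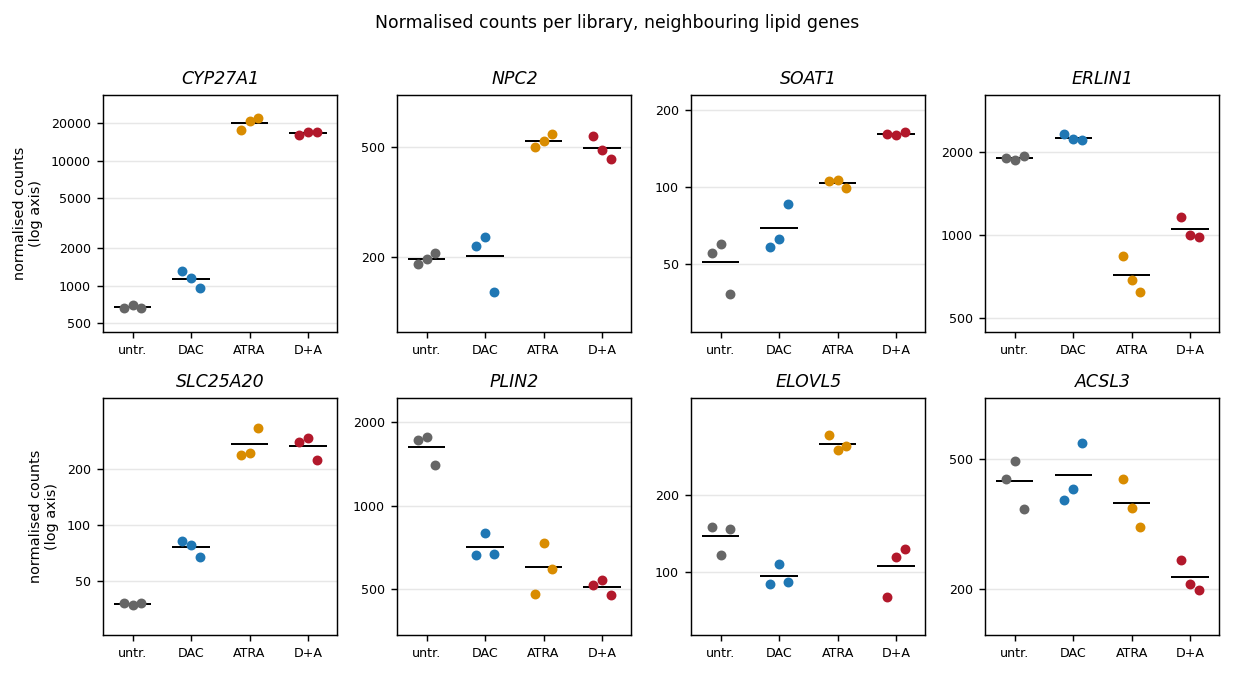
Normalised counts (y axis, log scale) of 8 genes of neighbouring lipid pathways in each library; points are libraries, bars are group means, untr. is untreated and D+A is DAC+ATRA. CYP27A1 and SLC25A20 are far higher in both ATRA groups, ELOVL5 is higher in ATRA alone, and PLIN2 is lower in every treated group.

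Division genes moved with ATRA as well. Of 15 proliferation genes tested, 13 were lower with ATRA (median log2 change -1.02) and 7 with DAC+ATRA (-0.56), where 14% and 14.4% of all genes were lower. With DAC, PCNA was higher and the median was 0.24. Their part in the fall of the synthesis genes was not tested. The median of the 18 cholesterol synthesis genes was -1.56 with ATRA and -1.72 with DAC+ATRA.

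Transcript use could alter these sums. Of the members, 13 had more than 1 transcript row with an untreated mean of at least 10 normalised counts, 32 rows in all. Rows of a gene had the same direction in 12 of the 13 with ATRA and with DAC+ATRA (ACACA was the other) and in 9 with DAC (not in CYP51A1, ELOVL6, FDFT1 and SREBF1). For HMGCS1, the row HMGCS1-201 averaged 520 in the untreated and 27.7 in the DAC+ATRA libraries, while HMGCS1-202 went from 18.6 to 14.8. The row that fell carried 92.2% of the HMGCS1 reads. For SREBF1, SREBF1-202 went from 145 to 91.8 and SREBF1-201 from 59.9 to 26.9.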

How the data were processed

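RNA-sequencing of 12 MOLM-13 libraries was analysed from 1 deposited table of 100502 transcript rows. The study's methods state that the authors made strand-specific, rRNA-depleted libraries, aligned reads with STAR to hg38 after FastQC and counted them with HTSeq. Tool versions and the annotation release are not given in the sources used here. The deposited values are a signal in which the authors had divided read counts by DESeq2 size factors, 1 per library. All values were whole multiples of 1 read (within 0.01 reads), so reads per library were recovered. Columns named CTRL were taken as untreated. Reads that fit several transcripts of a gene may not have been counted, so levels are lower limits.

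Rows were matched to GENCODE release 44 (88.9% of rows) and summed per symbol. Protein-coding genes with 10 or more in at least 3 libraries (10642) were fitted with limma 3.58.1 in R 4.3.3 on log2(value + 1), with 1 coefficient per group over all 12 libraries, a trended variance and Benjamini-Hochberg adjustment within each of 6 comparisons. DESeq2 1.42.0 and edgeR 4.0.16 on recovered reads, other scalings, filters and pseudocounts, a replicate block, fewer samples and leaving out each library were alternatives. The script was tested on simulated data. Other steps used Python 3.11.15.

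The members and lists were chosen with earlier results of these data known. Values per library are given for the regulators, ABCA1, ABCG1, MYLIP and each member called with an absolute log2 fold change of at least 0.8 in a comparison with untreated or with a called interaction. From each of the 4 other lists, up to 5 genes called with ATRA or DAC+ATRA were named by size of change. Genes listed without values, the proliferation genes and the markers fall outside that rule, and SMPDL3A was described as the LXR target called with ATRA. Promoter sequences came from RefSeq (GRCh38.p14). A few genes of the other lists are not reported here.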

Additional observations from a re-analysis of the deposited data

Results flagged for a closer look

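By the interaction term of the limma fit, the DAC effect differed between cells with and without ATRA in SCD, ABCA1, CYP27A1 and PLIN2. It also differed in the marker CEBPA (0.92, adjusted p 0.00814). The marker COL1A1 was called too (-2.04, adjusted p 0.00860). COL1A1 passed the filter only with treated libraries, where it was high, so that call is no support for a difference. Alternatives for these marker calls are not reported here. The DAC effect on SCD was -0.96 on the log2 scale without ATRA and -2.11 with it, a difference of -1.151 (adjusted p 4.51e-04). For ABCA1 it was 1.00 without ATRA and -0.74 with it, a difference of -1.742 (adjusted p 3.40e-05), so that the direction turned. For CYP27A1 it was 0.74 without ATRA and -0.26 with it, a difference of -0.9954 (adjusted p 9.33e-04). For PLIN2 it was -1.20 without ATRA and -0.22 with it, a difference of 0.9801 (adjusted p 0.00736). The SCD and ABCA1 interactions were called under every alternative run on them, and the PLIN2 interaction was lost without untreated replicate 1 or 2 or ATRA replicate 1 or 3 or DAC replicate 1 or DAC+ATRA replicate 1 or 2 or 3 (adjusted p 0.0155 to 0.0356), with a pseudocount of 0.1 (0.0106) and without a filter on low values (0.0139).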

How the results depend on the processing

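Of 147 calls of named genes, 113 were kept in every alternative, 34 were lost in at least 1 and 0 changed direction. If a change of over 2-fold was required as well, 5 members were called with DAC and 4 between DAC+ATRA and ATRA. With a pseudocount of 0.1 the synthesis minus efflux difference changed by -0.49 with DAC and -2.10 with DAC+ATRA, since ABCG1 lies near 0. DESeq2 called 16, 26 and 25 members with DAC, ATRA and DAC+ATRA, and edgeR 14, 24 and 25. Without single libraries the counts of members called were 10 to 14 with DAC, 19 to 24 with ATRA, 24 to 26 with DAC+ATRA, 19 to 23 between DAC+ATRA and DAC, 7 to 11 between DAC+ATRA and ATRA, and 2 for the interaction. The synthesis minus efflux difference then ranged from -0.96 to -0.65 with DAC, -2.42 to -2.03 with ATRA and -2.55 to -2.24 with DAC+ATRA. Same-numbered libraries did not deviate together (correlation -0.263 to 0.114 over 18 pairs), so the numbers were not taken as pairs. Some differently numbered libraries deviated together more, such as DAC replicate 3 with untreated replicate 1 (0.2457) and with ATRA replicate 1 (0.2138). A block for the replicate number does not take out such shared deviations. With a replicate block the counts were 13, 23, 25, 21, 9 and 2 over the 6 comparisons. Depth limits the genes with few reads (SREBF2, LSS, MVK, ACLY, ACSS2, ABCG1) most.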
